A study of Mus musculus with 16 samples.

Results

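The effect of Il13 knockout that is common to untrained and trained gastrocnemius was measured as the difference between 8 Il13-/- (KO) and 8 wild-type (WT) libraries, with training held as a covariate, and these are all 16 libraries of the series. The gastrocnemius is a mixed, mainly fast-fibred calf muscle. All mice were males of 20 weeks of age on C57Bl6/J, and each genotype had 4 untrained mice and 4 mice that ran daily on a treadmill for 5 weeks. Values are RPKM, that is, reads divided by the length of the gene and by the total of the library. A gene was tested if it reached 1 RPKM in at least 4 libraries. Of the 23440 genes listed, 10171 met this rule, of which 899 lie on chromosome 11, the chromosome of Il13, and 9272 on other chromosomes. Differences are KO minus WT in log2(RPKM + 0.1), so the change of a weakly expressed gene comes out too small, and "called" means an adjusted p under 0.05 in limma over all 10171 genes.

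Interleukin-13 is a type 2 cytokine that signals through a receptor of the Il13ra1 and Il4ra chains to the transcription factor Stat6, and it is known for steering macrophages towards a repair state. In muscle it has been studied for its part in fuel use during endurance training. A knockout allele made by gene targeting in embryonic stem cells carries a stretch of flanking chromosome along when it is crossed into another strain. The sources used here do not give the strain of those cells, the number of crosses or the origin of the WT mice. The identifying numbers of the WT and KO mice come from ranges that do not overlap. For all of the results below, the loss of Il13, the DNA carried with the targeted allele and any other difference between the 2 sets of mice therefore cannot be told apart.

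Il13 itself could not check the genotype labels. It lies at 53631323 to 53634702 on chromosome 11 (mm10, minus strand). All 8 WT libraries had 0 reads of it and KO libraries had 0 to 2. With 0 reads a level of up to 3 reads is possible from counting error alone, equal to 0.124 to 0.153 RPKM here. Skeletal muscle markers, among them the sarcomeric actin Acta1 and the fast myosin Myh4, summed to 53700 to 68400 RPKM in WT and 54200 to 62100 RPKM in KO libraries. The libraries held 16307025 to 20074677 reads, totals that were worked out from the RPKM steps of weakly expressed genes. WT trained mouse 1 stood apart from its group: its first principal component over the tested genes was 21.89, beside -2.756, -1.012 and -2.891 in the other WT trained libraries, and the median gene in it lay 0.126 (log2) above the mean of all libraries, beside -0.0344 to -0.00465. Several results are given both with and without it. Each library came from a mouse with an identifier of its own.

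Few genes passed the test of genotype over both training states, and most of those that did lie close together on chromosome 11. In all, 7 of 10171 genes were called (0.0688%). The 2 that rose in KO muscle (0.0197%) were Tnip1 and Acsl6, and the 5 that fell (0.0492%) were Lyrm7, Fam114a2, Anxa6, Tecr and Pon2. Of them, Lyrm7, Fam114a2, Anxa6, Tnip1 and Acsl6 are among the 899 tested genes of chromosome 11 (5 called, 0.556%), against 2 among the 9272 tested genes elsewhere (0.0216%). The 8 KO and 8 WT libraries did not overlap at all for 6 genes (0.059% of those tested). These were Lyrm7, Tnip1, Anxa6, Fam114a2 and Cnot8 on chromosome 11 and Mospd2 on chromosome X, 1 of the 9272 genes elsewhere (0.0108%). The difference was below 0 for 59.6% of all tested genes and 64.3% of those on chromosome 11. An unadjusted p under 0.05 was reached by 1197 genes (11.8%), of which 399 were higher (3.92%) and 798 lower (7.85%) in KO muscle. This split moved with the scaling: 5.2% were higher and 5.67% lower under quantile normalization, 5.91% and 6.91% with each library centred on its median, and 4.83% and 4.36% with each library centred by gene length. Without WT trained mouse 1, 52.5% of tested genes lay below 0, 891 had an unadjusted p under 0.05 (3.62% higher, 5.14% lower), and limma called 8 genes, the 7 above and Thg1l (adjusted p = 0.0183). By that looser rule and with all 16 libraries, chromosome 11 as a whole, with 13% of its 899 genes, was near the other chromosomes, with 11.6% of 9272. Without WT trained mouse 1 the counts were 90 of 899 and 801 of 9272.

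Lyrm7 showed the largest difference of the called genes. It encodes an assembly factor of respiratory complex III that holds the Rieske iron-sulphur subunit before it is built in, and it lies at 54839289 to 54860591 on the minus strand, 1.205 Mb from Il13. Its level was 2.59, 3.41, 2.96 and 3.17 RPKM in the 4 WT untrained libraries and 3.32, 2.48, 3.22 and 3.52 RPKM in the 4 WT trained libraries. In KO muscle it was 1.25, 1.33, 1.53 and 0.957 RPKM in untrained and 1.23, 1.24, 1.33 and 1.03 RPKM in trained mice. Every KO library lay below every WT library, and training left the level within the spread of its genotype. In reads these are at least 90 per WT library and at most 56 per KO library. The log2 difference was -1.26 (SE 0.0967), a KO to WT ratio of 0.419 on the RPKM + 0.1 scale. The adjusted p was 1.72e-06 in limma (8 against 8).

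Anxa6, annexin A6, a calcium-dependent membrane-binding protein that takes part in repair of the muscle fibre membrane, was the most abundant of the called genes on chromosome 11. It lies at 54978962 to 55033471 on the minus strand, 1.344 Mb from Il13. WT untrained libraries had 69.7, 74.3, 72 and 75.9 RPKM and WT trained libraries 81.1, 70, 70.3 and 71.1 RPKM. KO untrained libraries had 60.5, 56, 59.4 and 49.8 RPKM and KO trained libraries 50, 51.5, 53.5 and 51.7 RPKM. The lowest WT value thus stood above the highest KO value in both states. The log2 difference was -0.44 (SE 0.0471; limma adjusted p = 9.06e-05).

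Fam114a2 lies farther out, at 57482990 to 57518644 on the minus strand, 3.848 Mb from Il13, and had the smallest SE of the called genes. It had 18.6, 20.2, 20.2 and 20 RPKM in WT untrained and 19.8, 18.7, 19.4 and 20.3 RPKM in WT trained libraries. In KO libraries it had 15.2, 14.2, 15 and 13.4 RPKM untrained and 14.1, 14.3, 15.6 and 16.1 RPKM trained. The groups were apart in each state, and the log2 difference was -0.41 (SE 0.0427; limma adjusted p = 8.65e-05).

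Tnip1 and Acsl6 went the other way. Tnip1, which encodes a binding partner of A20 that restrains NF-kappaB signalling, lies at 54910787 to 54962940 on the minus strand, 1.276 Mb from Il13 and next to Anxa6, which fell. Its level was 12.5, 12.4, 11.9 and 12.4 RPKM in WT untrained and 13.4, 10.7, 10.5 and 10.8 RPKM in WT trained libraries. In KO it was 18, 16.2, 18.5 and 16.8 RPKM untrained and 15.7, 14.9, 15.5 and 17.5 RPKM trained. All 8 KO libraries exceeded all 8 WT libraries, and the log2 difference was 0.49 (SE 0.053; limma adjusted p = 9.06e-05). The partner named in its description, A20 itself (gene Tnfaip3, chromosome 10), measured 1.21 ± 0.348 RPKM (SD, n = 8) in WT and 1.03 ± 0.189 RPKM in KO muscle (log2 -0.18, SE 0.165, limma adjusted p = 0.689); it was looked up after the value of Tnip1 was known.

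Acsl6, a ligase that activates long-chain fatty acids to acyl-CoA, is the called gene nearest to Il13, at 54303824 to 54361539 on the plus strand, 0.669 Mb away. WT untrained libraries had 12.8, 10.4, 10.4 and 9.97 RPKM and WT trained libraries 10, 9.71, 8.09 and 9.14 RPKM. KO untrained libraries had 13.4, 13.2, 13.8 and 14 RPKM and KO trained libraries 13.3, 12.8, 12.4 and 13 RPKM. Within each state the genotypes did not overlap, but the first WT untrained mouse reached the range of the trained KO mice. The log2 difference was 0.40 (SE 0.0572; limma adjusted p = 0.0033). Exons of an unnamed gene model, Gm12224, overlap Acsl6 on the other strand in GENCODE M21. The sources do not say whether counting used the strand, so reads of the 2 cannot be told apart for certain.

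**Figure D1:**
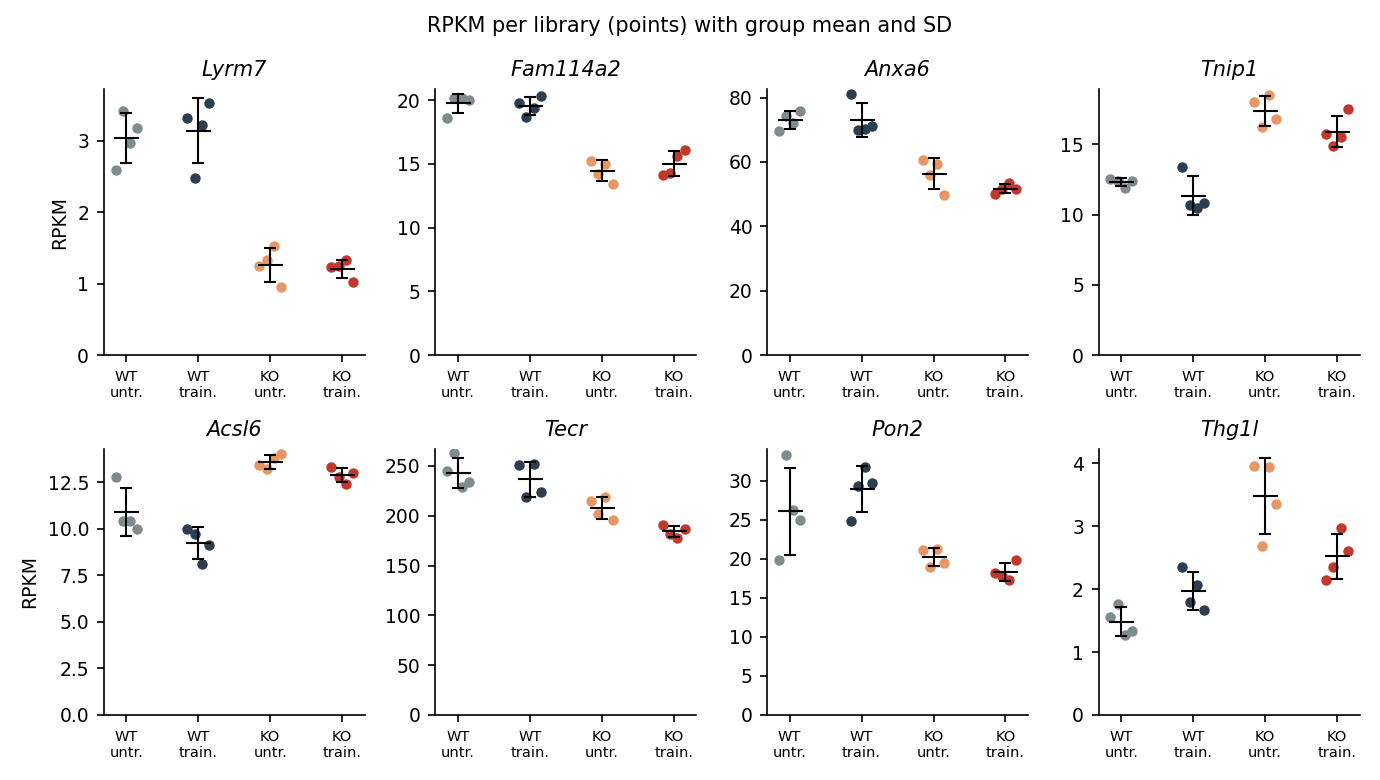
RPKM of the 7 called genes and of Thg1l in each library (points; y axis from 0, in RPKM), by genotype and training (x axis), with the group mean and SD (n = 4). Lyrm7 fell from 2.48 to 3.52 RPKM in WT to 0.957 to 1.53 RPKM in KO libraries, in untrained and trained mice.

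The promoters of 3 of the 5 called chromosome 11 genes are held in the RefSeq table (GRCm38.p6, the same assembly as mm10). All 3 are shown. These genes lie within 1 Mb of each other. Lyrm7 fell in KO muscle, and Acsl6 and Tnip1 rose. Each line gives the 250 bases before the annotated start, 5′ to 3′ on the strand of the gene, with each CG pair in capitals. They are chr11:54303574-54303823 (plus strand) for Acsl6, chr11:54860598-54860847 (minus strand) for Lyrm7 and chr11:54962941-54963190 (minus strand) for Tnip1.
Acsl6: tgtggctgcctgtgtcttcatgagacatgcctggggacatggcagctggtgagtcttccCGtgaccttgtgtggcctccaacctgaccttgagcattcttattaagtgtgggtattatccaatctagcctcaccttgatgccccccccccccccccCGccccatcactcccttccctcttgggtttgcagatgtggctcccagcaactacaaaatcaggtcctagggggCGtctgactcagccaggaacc
Lyrm7: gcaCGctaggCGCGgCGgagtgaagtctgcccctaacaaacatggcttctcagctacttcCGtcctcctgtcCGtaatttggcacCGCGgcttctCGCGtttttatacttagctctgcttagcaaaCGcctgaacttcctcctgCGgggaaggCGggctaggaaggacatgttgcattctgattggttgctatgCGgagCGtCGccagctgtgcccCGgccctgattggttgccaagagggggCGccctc
Tnip1: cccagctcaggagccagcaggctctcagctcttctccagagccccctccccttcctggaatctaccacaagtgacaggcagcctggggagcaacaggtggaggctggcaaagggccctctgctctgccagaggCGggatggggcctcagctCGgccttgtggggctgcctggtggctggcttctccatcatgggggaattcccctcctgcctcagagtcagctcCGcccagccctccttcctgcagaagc
The Lyrm7 stretch holds 18 CG pairs, and the stretches of Acsl6 and Tnip1 hold 3 each. Over the full windows of 300 bases in the table, which add 50 bases after the start, Lyrm7 had 22, Acsl6 5 and Tnip1 4, beside a median of 7 over all 32851 windows. Windows with at least as many CG pairs as that of Lyrm7 made up 23.1% of the table, and windows with at most as many as that of Tnip1 made up 38%. The Stat6-type motif TTCNNNNGAA, read on both strands, was in none of the 3 windows and in 6.95% of all windows. These counts describe the reference letters only.

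The difference was densest on one side of Il13. From Il13 to 5 Mb towards higher coordinates, 35 of 67 listed genes were tested, 5 were called and 15 had an unadjusted p under 0.05 (42.9%, against 11.8% of all tested genes). Of these 15, 5 were higher and 10 lower in KO muscle. The median absolute log2 difference of the 35 genes was 0.117. In the 5 Mb on the other side, 49 of 106 listed genes were tested, none was called, 4 had an unadjusted p under 0.05 (8.16%) and the median absolute difference was 0.0542. From 5 to 10 Mb beyond Il13 towards higher coordinates, 0 of 66 were called and 4 reached the looser rule (6.06%). Elsewhere on the chromosome the looser rule was met by 11.1% to 14.5% of genes per stretch. The edges of these stretches were set with the values known, so the shares are a description.

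**Figure D2:**
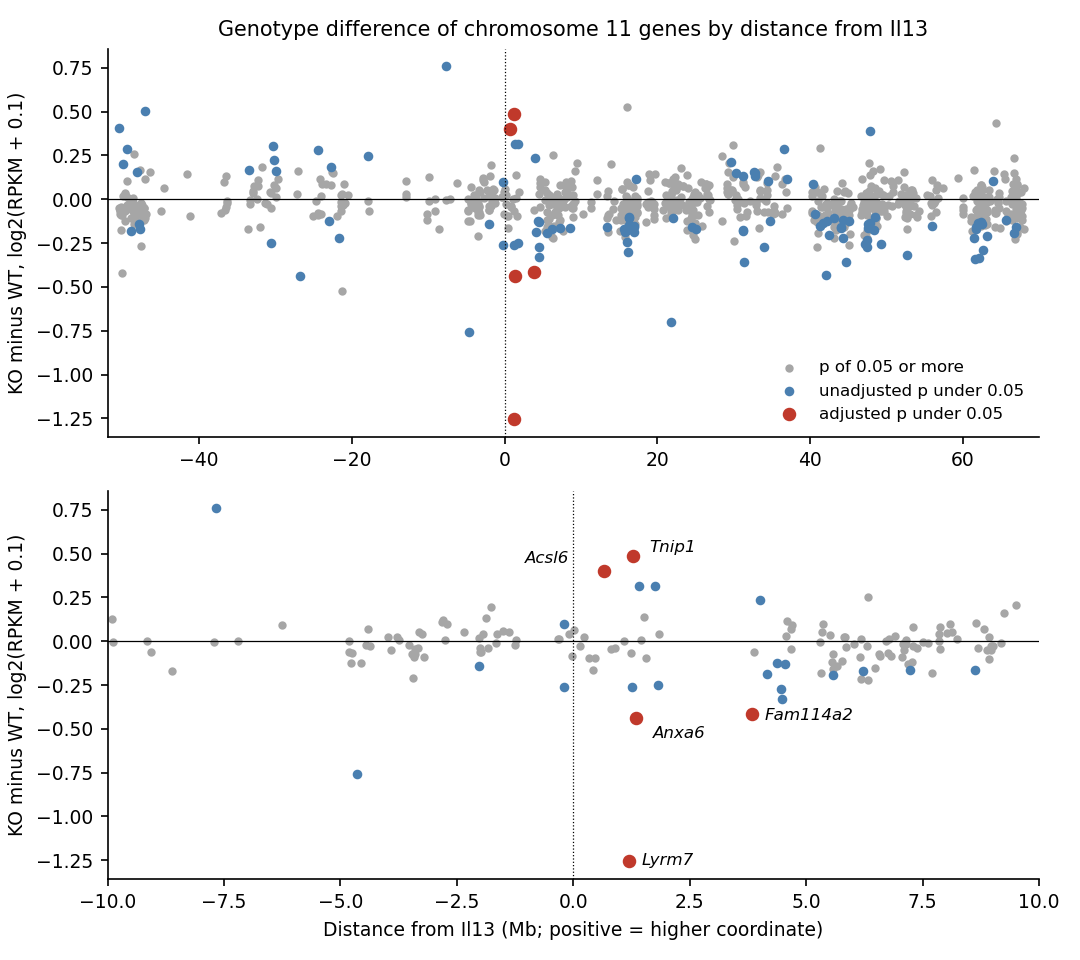
KO minus WT difference on the log2(RPKM + 0.1) scale (y axis) of each of the 899 tested genes of chromosome 11 by distance from Il13 in Mb (x axis; positive towards higher coordinates), for the whole chromosome above and for 10 Mb to either side below. The 5 called genes (red) run from Acsl6 at 0.669 Mb to Fam114a2 at 3.848 Mb on the side of higher coordinates, Lyrm7 lowest at -1.26.

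The called genes are not the nearest ones, and genes that did not pass lie between them. Of the 10 tested genes nearest to Il13 towards higher coordinates, which reach 1.083 Mb, Acsl6 was the 1 called, and no other had an unadjusted p under 0.05. Rad50, the DNA repair ATPase whose gene region has its nearest edge 0.015 Mb from Il13, measured 1.34 ± 0.121 RPKM in WT and 1.41 ± 0.197 RPKM in KO muscle (SD, n = 8, limma adjusted p = 0.802). Irf1, an interferon-responsive transcription factor, measured 2.74 ± 0.427 and 2.70 ± 0.597 RPKM (adjusted p = 0.94 in limma). The carnitine transporter Slc22a5 measured 3.76 ± 0.239 and 3.86 ± 0.575 RPKM (adjusted p = 0.914 in limma). Hint1, a nucleotide hydrolase at 1.232 Mb between Lyrm7 and Tnip1, had 122 ± 8.42 RPKM in WT and 116 ± 5.02 RPKM in KO muscle (log2 -0.07, limma adjusted p = 0.553).

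On the side of lower coordinates none of the 10 nearest tested genes was called, and their adjusted p ran from 0.316 to 0.975 in limma. Kif3a, a kinesin motor subunit and the nearest of them, had 0.9 to 1.36 RPKM in WT and 0.835 to 1.18 RPKM in KO libraries (log2 -0.08, limma adjusted p = 0.765). Of the 10, 2 had an unadjusted p under 0.05: Aff4, a transcription elongation scaffold, was at 7.27 ± 0.238 RPKM in WT and 7.79 ± 0.344 RPKM in KO muscle (log2 0.10), and Uqcrq, a small subunit of complex III, at 422 ± 50.7 and 351 ± 37.5 RPKM (log2 -0.26).

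Other genes of the 5 Mb stretch missed the threshold. Cnot8, a deadenylase subunit at 4.469 Mb, had 14.1 to 17 RPKM in WT and 10.4 to 14 RPKM in KO libraries, which do not overlap, with a log2 difference of -0.27 (SE 0.0609; limma adjusted p = 0.214). Its neighbour Gemin5, an RNA-binding protein of the SMN complex, had 2.67 ± 0.353 and 2.10 ± 0.197 RPKM (SD, n = 8; log2 -0.33, limma adjusted p = 0.316). Gpx3, the secreted glutathione peroxidase that lies beside Tnip1, had 95.8 ± 13.2 and 80.7 ± 16.7 RPKM (log2 -0.26, adjusted p = 0.383 in limma). Atox1, a copper chaperone, had 26.4 ± 4.20 and 22.1 ± 2.25 RPKM (log2 -0.25, adjusted p = 0.331 in limma). Sparc, a collagen-binding matrix protein, had 112.7 ± 8.36 and 143.7 ± 35.1 RPKM (log2 0.32, adjusted p = 0.331 in limma). Its KO values came apart from WT in untrained mice, at 126 to 193 RPKM against 99.3 to 116, and overlapped in trained mice.

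Thg1l lies on the other side, at -7.676 Mb from Il13, at 45948154 to 45955494. It encodes the enzyme that adds the extra guanosine to histidine tRNA. WT untrained libraries had 1.56, 1.77, 1.27 and 1.33 RPKM and KO untrained libraries 3.96, 2.68, 3.94 and 3.36 RPKM. WT trained libraries had 2.35, 1.79, 2.07 and 1.67 RPKM and KO trained libraries 2.15, 2.35, 2.97 and 2.61 RPKM. The genotypes were apart in untrained and overlapped in trained mice. Over both states the log2 difference was 0.76 (SE 0.141) and the limma adjusted p was 0.0549. The difference was 1.17 in untrained mice (adjusted p = 0.00181 in limma) and 0.34 in trained mice (adjusted p = 0.315). The change between the states, -0.83, had an adjusted p of 0.526.

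Off chromosome 11, Tecr and Pon2 were called, and both fell. Tecr (chromosome 8, 83571698 to 83594491), the reductase of the last step of very-long-chain fatty acid elongation, had 245, 263, 229 and 234 RPKM in WT untrained and 251, 219, 252 and 224 RPKM in WT trained libraries. KO libraries had 215, 202, 219 and 196 RPKM untrained and 191, 182, 178 and 187 RPKM trained. Within each state the genotypes did not overlap. The log2 difference was -0.29 (SE 0.0458; limma adjusted p = 0.0113), and quantile normalization ended the call (adjusted p = 0.0836).

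Pon2 (chromosome 6, 5264624 to 5298373) encodes an intracellular lactonase with antioxidant activity. WT libraries had 19.8, 33.3, 26.3 and 25 RPKM untrained and 24.8, 29.3, 31.8 and 29.7 RPKM trained. KO libraries had 21.1, 18.9, 21.2 and 19.5 RPKM untrained and 18.2, 17.8, 17.3 and 19.9 RPKM trained. The first WT untrained mouse lay within the KO range and the other 7 WT mice above it. The log2 difference was -0.50 (SE 0.0873; limma adjusted p = 0.0294). Without WT trained mouse 2 it was -0.49 with an adjusted p of 0.102, the highest of the settings tried, and the call held in 13 of 29 of them. It was lost without any 1 of WT untrained mice 2 and 3, WT trained mice 2, 3 and 4, KO untrained mice 2 and 4 and KO trained mice 1 to 4. An unnamed gene model, Gm44424, overlaps Pon2 on the other strand.

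The next genes off chromosome 11 were Mospd2, a membrane-contact protein, Hspb3, a small heat shock protein, and Commd3. Mospd2 had 1.43 to 2.06 RPKM in WT and 2.1 to 2.89 RPKM in KO libraries, without overlap, and a log2 difference of 0.42 (SE 0.082; limma adjusted p = 0.0831). Hspb3 had 14.2 to 16.5 and 11.8 to 14.6 RPKM (log2 -0.23), and Commd3 had 52.6 to 62.2 and 49.1 to 54.9 RPKM (log2 -0.18). Both had an adjusted p of 0.12.

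The untrained and the trained mice are separate animals. The 7 called genes were chosen on both states together, so their values by state are a description. In untrained mice 5 genes were called (0.0492%) and in trained mice 9 (0.0885%). The 4 KO and 4 WT libraries did not overlap for 3.95% of tested genes in untrained and 8.48% in trained mice. Lyrm7, Tnip1, Anxa6 and Fam114a2 were called in both. For Lyrm7 the log2 difference was -1.21 untrained and -1.30 trained, for Tnip1 0.49 and 0.48, for Anxa6 -0.37 and -0.50 and for Fam114a2 -0.45 and -0.38. The remaining call in untrained mice was Thg1l. The others in trained mice were Acsl6, Pon2, Tecr, the LIM protein Fhl1 and the small heat shock protein Hspb6. Acsl6 measured 0.33 untrained and 0.48 trained, Pon2 -0.35 and -0.65, and Tecr -0.22 and -0.35. Fhl1 differed by 0.08 in untrained and -0.71 in trained mice, and Hspb6 by 0.03 and -0.70.

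Across the genome the states shared little. Of all 10171 tested genes, 53.5% had the same sign in both states, and Pearson's r between the 2 sets of differences was -0.013 across genes, which are not independent replicates. Of the 631 genes (6.2%) with an unadjusted p under 0.05 in untrained mice, 354 had the same sign in trained mice (56.1%). The trained comparison had 1409 such genes (13.9%), and 65 genes (0.639%) were in both sets with the same sign. Without WT trained mouse 1 the trained comparison had 769 such genes (7.56%) and the untrained comparison 845, the reverse of the order with all 16 libraries. Limma then called 7 genes in trained and 5 in untrained mice. In that setting 51 genes were in both sets with the same sign, and r was -0.0482. In the 5 Mb stretch beyond Il13, 26 of 35 genes had the same sign (74.3%), r was 0.6, and 6 (17.1%) were in both sets. This stretch was chosen with its values known, and its figures are given without a test. The test of the difference between states called no gene (0 in limma with 854 at an unadjusted p under 0.05, 8.4%; 0 with voom on recovered reads, with 846 unadjusted), and the smallest adjusted p was 0.526.

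**Figure D3:**
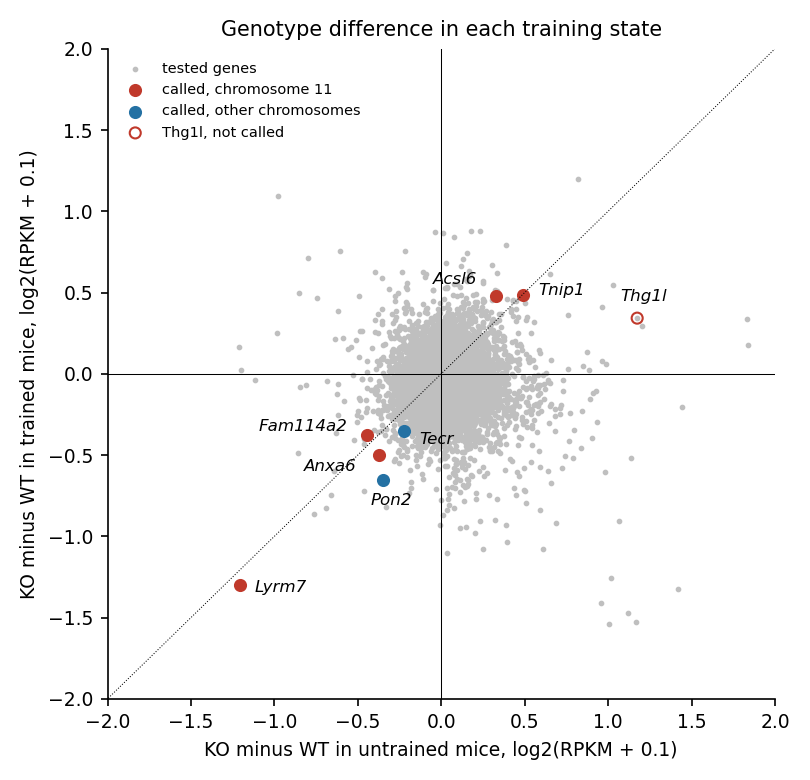
KO minus WT difference on the log2(RPKM + 0.1) scale in untrained mice (x axis) and in trained mice (y axis) for the tested genes, of which 7 lie outside the axes; the dotted line marks equal differences. Lyrm7, Tnip1, Anxa6 and Fam114a2 lie near that line, Thg1l was 1.17 untrained and 0.34 trained, and the cloud of all genes has an r of -0.013.

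The genes of interleukin-13 signalling did not pass. None of the 14 tested members of the list of interleukin-13 and interleukin-4 signalling genes was called or had an unadjusted p under 0.05, and their median difference was 0.00552. Il4ra, the receptor chain shared by both cytokines, had 1.75 ± 0.273 RPKM in WT and 2.08 ± 0.677 RPKM in KO muscle (SD, n = 8; limma adjusted p = 0.57). Il13ra1, the other chain, had 0.789 ± 0.182 and 0.847 ± 0.203 RPKM and was under the filter. Stat6 had 6.87 ± 0.645 and 6.87 ± 0.728 RPKM (log2 -0.0024, adjusted p = 0.991 in limma). Stat3, which also lies on chromosome 11, had 11.9 ± 0.66 and 11.98 ± 2.25 RPKM (adjusted p = 0.991 in limma). Socs3, a feedback inhibitor of cytokine signalling, had 0.821 ± 0.344 and 1.13 ± 0.385 RPKM (log2 0.44, adjusted p = 0.431 in limma).

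Targets of type 2 cytokines behaved likewise: 0 of 11 tested genes were called and 0 had an unadjusted p under 0.05, with a median of 0.111. Retnla, a marker of alternatively activated macrophages, had 12.9 to 30.7 RPKM in WT and 14.2 to 41.9 RPKM in KO libraries (log2 0.31, limma adjusted p = 0.58). Ccl11, the eosinophil chemoattractant eotaxin, had 21.7 to 26.9 and 18.4 to 27.2 RPKM (log2 -0.13, limma adjusted p = 0.467). The mannose receptor Mrc1 had 1.67 to 2.8 and 1.41 to 3.79 RPKM (log2 0.10, limma adjusted p = 0.845). The genotypes overlapped for each of these 3 genes, and the SE was 0.216 for Retnla and 0.172 for Mrc1.

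No gene of oxidative phosphorylation, the respiratory chain and ATP synthase, was called. All 50 members of the list were tested and all 50 had a difference below 0, as 59.6% of all tested genes did; 39 had an unadjusted p under 0.05 in the lower direction, where 7.85% of all tested genes did. Their median difference was -0.144, beside -0.0243 for all tested genes, and it was -0.102 in untrained and -0.185 in trained mice. Under quantile normalization it was -0.0464, with 39 of 50 below 0 and 7 at an unadjusted p under 0.05 in the lower direction, where 5.67% of all tested genes were. Without WT trained mouse 1 it was -0.122, with 32 such genes. With each library centred on its median the list median was -0.117, beside 0.00296 for all tested genes. All 50 then lay below 0, and 38 were lower at an unadjusted p under 0.05, where 6.91% of all tested genes were. Ndufa12, a complex I subunit, had 283 to 360 RPKM in WT and 232 to 317 RPKM in KO libraries (log2 -0.25, SE 0.0541, limma adjusted p = 0.161). Only with each library centred on its median was Ndufa12 called (limma adjusted p = 0.0134). Uqcrb, of complex III, had 451 to 515 and 400 to 465 RPKM (log2 -0.13, limma adjusted p = 0.316), and 0.0053 was its log2 difference under quantile normalization. Cox7b, of cytochrome oxidase, had 282 to 328 and 237 to 290 RPKM (log2 -0.16, limma adjusted p = 0.316).

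Complex III, which Lyrm7 helps to assemble, had 7 members in the list, with differences from -0.26 to -0.11. Of them, 5 had an unadjusted p under 0.05 in the lower direction, as 39 of the 50 genes of the whole list did, beside 7.85% of all tested genes and 20.7% of those of up to 1558 bases. The Rieske subunit Uqcrfs1, the client of Lyrm7, had 206 to 271 RPKM with a median of 230 in WT libraries and 181 to 234 RPKM with a median of 214 in KO libraries. The genotypes overlapped, and the log2 difference was -0.11 (SE 0.055; limma adjusted p = 0.442).

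The difference of the oxidative phosphorylation list moved with gene length and with quantile normalization, and less with each library centred on its median. The tested genes were put in order of length and split into 5 classes of nearly equal size. The median KO minus WT difference was -0.0788 in the shortest class (up to 1558 bases), then -0.0467, -0.0205 and -0.00488, and 0.0203 in the longest class. The share with an unadjusted p under 0.05 and a lower level in KO fell from 20.7% in the shortest to 1.47% in the longest class. The share with a higher level in KO at that p rose from 1.92% in the shortest to 7.77% in the longest class. Of the 50 oxidative phosphorylation genes, 41 are in the shortest class, and their median length is 748 bases. With each library centred by gene length, an alternative chosen after these values were seen, the median of the list was -0.0543. For all tested genes it was then 0.00192. In that setting 45 of the 50 genes lay below 0. Of the 50, 16 were lower at an unadjusted p under 0.05, where 4.36% of all tested genes were. The part of gene length in the result was not tested further.

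The same measure was taken in each library. The median deviation of the shortest class minus that of the longest was -0.0407 to 0.149 in the 8 WT libraries, with a median of 0.0644, and -0.128 to 0.0511 in the 8 KO libraries, with a median of -0.0573. The ranges overlap. The difference within training states was -0.106, and -0.0894 without WT trained mouse 1. This restates the trend above in the same libraries and is given without a test. Reads in listed genes made up 80.4% of the solved totals in WT and 78.3% in KO libraries on average, a difference of -2.11 percentage points (two-sided exact permutation within states, p = 0.0678).

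**Figure D4:**
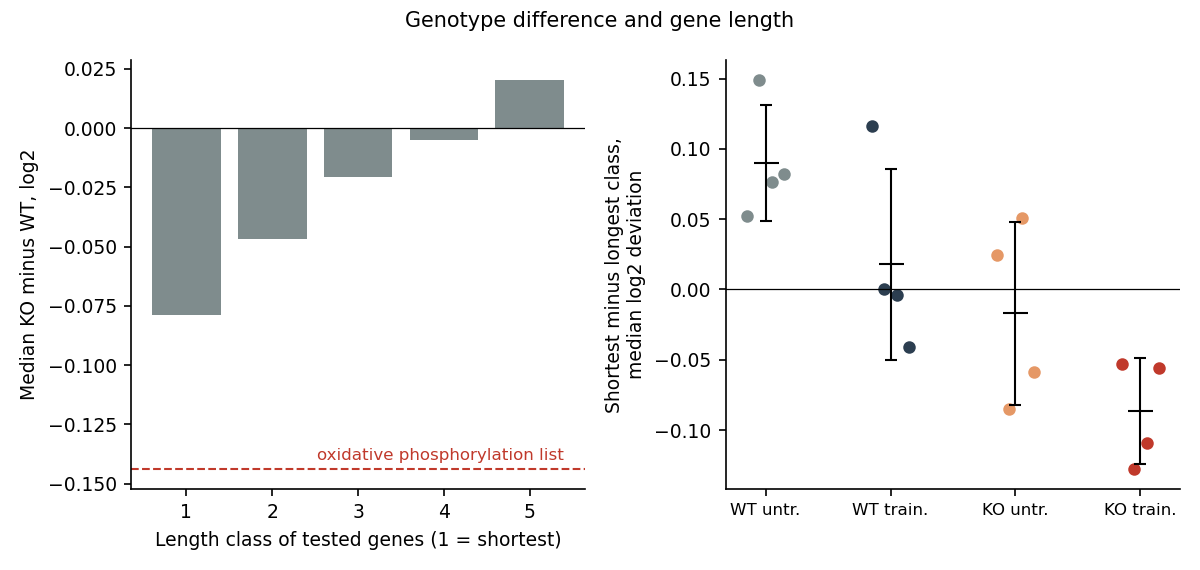
Left, median KO minus WT difference (log2, bars) by length class of the tested genes (5 classes), with the median of the 50 oxidative phosphorylation genes as a dashed line at -0.144. Right, for each library (points, with group mean and SD, n = 4), the median log2 deviation of the shortest class minus that of the longest; KO libraries averaged -0.0518 and WT libraries 0.054.

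Other metabolic lists had 0 called genes as well. Of 23 genes of the citric acid cycle, 22 lay below 0 (59.6% of all tested genes) and 7 were lower at an unadjusted p under 0.05 (7.85% of all tested genes), with a median of -0.0932. Under quantile normalization the median was -0.00763, with 15 below 0 and 0 lower at that p, and without WT trained mouse 1 it was -0.0726, with 3 lower. With each library centred on its median it was -0.0659, with 20 below 0 and 8 lower. In these settings, in that order, 5.67%, 5.14% and 6.91% of all tested genes were lower at that p. Centred by gene length the median was -0.0581, with 19 below 0 and 4 lower, where 4.36% of all tested genes were. Idh3g, a subunit of NAD-dependent isocitrate dehydrogenase, had 218 ± 18.2 and 193 ± 18.4 RPKM (SD, n = 8; log2 -0.18, limma adjusted p = 0.331). Of 26 genes of glycolysis and glycogen, 21 lay below 0 and 8 were lower at an unadjusted p under 0.05, read against the same shares of all genes, and their median was -0.0959. Under quantile normalization the median was -0.0039, with 14 below 0 and 1 lower at that p. With each library centred on its median it was -0.0687, with 19 below 0 and 7 lower. Centred by gene length the median was -0.0517, with 19 below 0 and 4 lower. In each setting the share of all tested genes was that given above. Among the 26 genes the muscle glycogen synthase Gys1 had 147.6 ± 10.8 and 132 ± 9.81 RPKM (log2 -0.16, limma adjusted p = 0.316). Of 29 cytosolic ribosomal protein genes, 28 lay below 0 (59.6% of all tested genes), with a median of -0.0766. But the median was 0.00343 under quantile normalization and 0.0142 when centred by length. With each library centred on its median it was -0.0494, with 27 below 0. Without WT trained mouse 1 it was -0.0443, also with 27 below 0. In the list of insulin signalling and glucose uptake, 2 of 17 genes were higher at an unadjusted p under 0.05, where 3.92% of all tested genes were. These were the insulin receptor Insr, at 8.85 ± 0.3 and 9.69 ± 0.39 RPKM (log2 0.13, limma adjusted p = 0.316), and Tbc1d4, a Rab GTPase-activating protein of Glut4 traffic (log2 0.17, limma adjusted p = 0.351).

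Of 9 tested genes of the neuromuscular junction, 0 were called and 4 were lower at an unadjusted p under 0.05, where 7.85% of all tested genes were. In the list 6 genes lay below 0, as 59.6% of all tested genes did, and 3 above, among the latter Musk (log2 0.18). The median was -0.136. Chrnb1, the beta subunit of the muscle acetylcholine receptor on chromosome 11, had 14.6 to 19.7 RPKM in WT and 11.6 to 15.7 RPKM in KO libraries (log2 -0.30, SE 0.0791, limma adjusted p = 0.316). Ache, acetylcholinesterase, had 13.7 to 16.3 and 10.1 to 14.8 RPKM (log2 -0.24, limma adjusted p = 0.316). Of 31 extracellular matrix genes, 25 lay above 0 and 6 below, where 59.6% of all tested genes lay below. Of the 31, 1, Sparc, was higher at an unadjusted p under 0.05, where 3.92% of all tested genes were. The matrix median was 0.282 in untrained and -0.0651 in trained mice.

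Markers of other cell types gave 0 called genes in each of their lists. In bulk tissue, fewer cells of a type and less RNA per cell cannot be told apart. Macrophage markers summed to 66.3 to 133 RPKM in WT and 65.6 to 151 RPKM in KO libraries, with 10 tested and none at an unadjusted p under 0.05. None of the 10 lymphocyte markers reached the filter, and their sum was 0.407 to 0.79 RPKM in WT and 0.405 to 1.2 RPKM in KO libraries. Of 10 tested adipocyte markers, 9 lay above 0 and 1 below, where 59.6% of all tested genes lay below. Their median was 0.339, made up of 0.693 in untrained and -0.0828 in trained mice. The adipocyte list summed to 1030 to 1410 RPKM in WT and 940 to 1790 RPKM in KO libraries. Tendon markers differed by a median of 0.442 in untrained and -0.736 in trained mice and summed to 124 to 274 RPKM in WT and 100 to 264 RPKM in KO libraries. The part of these markers in the gene results was not tested.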

How the data were processed

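The authors deposited 1 table of RPKM values per gene and library; per the file headers the reads had been trimmed. Libraries were stranded and poly(A)-selected, per the labels' protocols. The submitters' processing notes name the build mm10. The sources used here do not give the aligner, counting program, annotation or use of strand. Solved from the steps between low values, library totals ran from 16307025 to 20074677 reads (median 17780533), and recomputed RPKM differed from the deposited by at most 0.0018 of the value. These reads served for depth, floors and voom.

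The genotype effect was fitted on log2(RPKM + 0.1) with limma 3.58.1 (trend, robust moderation with statmod 1.5.0, R 4.3.3) and training as an additive term, over genes that reached 1 RPKM in 4 or more of the 16 libraries. A second fit with 1 mean per group gave the difference in each training state and between states. Two-sided p-values were adjusted over all tested genes (Benjamini-Hochberg; threshold 0.05). The design allowed for counts; the file held RPKM, so its form for normalized values was used. The fit was also run on simulated reads drawn gene by gene, without shifts of whole libraries or a trend with gene length. That run therefore cannot speak to the effects of scaling, gene length or single libraries given above.

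The members, the 34 gene lists and the tests were chosen with earlier results of these data known. Genes were named by rule: those called, the top 5 by p on or off chromosome 11 if under 5 were called there, the 10 nearest to Il13 on either side, up to 3 per list by p, and genes of the interleukin-13 pathway. Other genes of the 5 Mb stretch, Uqcrfs1, Tnfaip3, Fhl1, Hspb6, Mrc1, Hint1 and the choice of which to print came after the values were seen. Replicate numbers are not stated to pair the mice. Over 24 same-numbered pairs of libraries the correlation of deviations was -0.182 to 0.442, above 0.1 in 5. Between untrained and trained mice it was 0.149, 0.191, 0.442 and 0.0523 in KO and -0.113, -0.0495, 0.0441 and 0.109 in WT. Pairs with different numbers were not compared, so these values cannot decide whether the numbers pair mice. Alternatives numbered 30. Gene overlaps came from GENCODE M21. Recovery and plots used Python 3.11.15, NumPy 2.4.6, pandas 2.3.3 and matplotlib 3.10.9.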

Additional observations from a re-analysis of the deposited data

Results flagged for a closer look

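In 13 of 264 groups of 4 libraries, 1 for each named gene and group, the lowest or highest library lay far from the other 3, with a gap beyond the 95% critical value of Dixon's test. Chance gives about 1 in 20 groups. High values in WT trained mouse 1 were Anxa6 at 81.1 RPKM (others 70 to 71.1), Tnip1 at 13.4 (10.5 to 10.8), Atox1 at 30.7 (21.2 to 22.7), Uqcrq at 530 (391 to 400) and Uqcrfs1 at 271 (228 to 234). Without that mouse the log2 difference was -0.41 for Anxa6 (limma adjusted p = 7.27e-05) and 0.53 for Tnip1 (adjusted p = 5.43e-06). In WT untrained mouse 3, Tnip1 was at 11.9 RPKM (others 12.4 to 12.5) and Sparc at 99.3 (113 to 116). Fam114a2 was at 18.6 RPKM in WT untrained mouse 1 (others 20 to 20.2). Slc22a4, an ergothioneine transporter, was at 1.12 RPKM in WT trained mouse 2 (others 1.48 to 1.52). In KO mice, Uqcrq was at 299 RPKM in trained mouse 2 (others 351 to 358). Rapgef6 was at 1.21 RPKM in trained mouse 4 (others 0.97 to 1). In untrained mouse 3, the mitochondrial channel Vdac1 was at 635 RPKM (others 560 to 571) and the coactivator Ppargc1b at 2.79 (others 1.93 to 2.04).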

How the results depend on the processing

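Lyrm7, Fam114a2, Anxa6, Tnip1 and Acsl6 were called under each of the 29 alternatives to the genotype fit that tested them; Lyrm7 was under the filter at 5 RPKM. Tecr was lost under quantile normalization alone, and Thg1l was called in 8 of 28 settings. Voom on the recovered reads called the same 7 genes. The count of 7 became 12 with each library centred on its median (4 higher, 8 lower), and was 6 to 8 leaving out 1 library. The split of 2 higher and 5 lower became 4 and 3 under quantile normalization and 4 and 4 centred by gene length. Chromosome 11 kept 5 to 6 calls without 1 library. On other chromosomes the 2 calls became 5 when median-centred, 1 with no filter, with quantile normalization (Mospd2), with the replicate number as a block or without trend and robust moderation, and 1 to 3 without 1 library. The test between states, with 0 calls, gave 1 with no filter, 1 with quantile normalization and 0 to 2 without 1 library (2 without KO trained mouse 3). In untrained mice 5 calls became 3 with a filter at 5 RPKM, 3 with only those 8 libraries and 3 to 5 without 1 library (3 without any 1 WT untrained mouse or KO untrained mouse 1 or 3). In trained mice 9 became 5 with the replicate block, 2 without trend and robust moderation, 3 with only those 8 libraries and 2 to 9 without 1 library (2 or 3 without WT trained mouse 3 or 4 or KO trained mouse 1, 2 or 4). The replicate block gave 6 calls for genotype, 5 of them on chromosome 11. The causes were not tested. No result changed sign after being called. Il13 and its cytokine neighbours, at 0 to 2 reads per library, had too few reads to compare the genotypes.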
